A study of Mus musculus with 8 samples.

Results

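The mitochondrial respiratory chain is built from subunits that are encoded mostly in the nucleus, and 79 such subunit genes were measured among the 18193 genes of the arrays. They were chosen by name: symbols starting with Nduf and a letter a, b, c, s or v before a number stood for complex I (35 genes), Sdha to Sdhd for complex II (4 genes), Uqcr for complex III (8 genes), Cox4 to Cox8 followed by a, b or c for complex IV (15 genes), and Atp5 for complex V (17 genes). The patterns use names alone, but they were chosen with earlier results of these data known. The patterns matched 86 symbols, and the other 7 (Ndufa11, Ndufa11b, Ndufb4b, Ndufb4c, Ndufs5-ps, Ndufs6 and Ndufs6b) had no probe set of a single symbol and are not among the members. Each gene was read by 1 probe set, the brightest of those with a single symbol, and 48 members had 2 or more to choose from.

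Leukemic cells from mouse carried MLL-AF9, a fusion oncogene of acute myeloid leukemia, and each of the 8 samples gave total RNA for 1 Affymetrix array. The groups, of 2 arrays each, were shLUC cells after 6 days in 3 µM EPZ4777, shLUC cells in DMSO, cells labelled shSirt1 after 21 days in 3 µM EPZ4777, and cells labelled shSirt1 in DMSO. EPZ4777 inhibits DOT1L, a methyltransferase of histone H3, shLUC is a control hairpin against luciferase, and shSirt1 is a hairpin against the deacetylase gene Sirt1. All cells grew in IMDM that held 15% serum, SCF at 20 ng/ml and both IL-3 and IL-6 at 10 ng/ml, and the labels give no time for DMSO. Hairpin and days in EPZ4777 cannot be told apart, since shLUC cells were treated for 6 days and cells labelled shSirt1 for 21. Titles carry the codes A4 and D11 (shLUC) and A1 and A5 (shSirt1), each once in EPZ4777 and once in DMSO. Separate cultures are not stated for arrays of 1 group, so p-values reflect the spread among these samples alone, possibly a technical one. Values below are log2 of the deposited intensity, 4 at a time in the order A4, D11, A1, A5, and differences are EPZ4777 minus DMSO with their standard error (SE) unless said otherwise.

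Electrons enter the chain from NADH at complex I or from succinate at complex II, pass through coenzyme Q to complex III and through cytochrome c to complex IV, where oxygen is reduced. Complexes I, III and IV pump protons, and complex V, the ATP synthase, makes ATP from the resulting gradient. Complex II is also the succinate dehydrogenase of the TCA cycle, and leukemic myeloid cells are known to use oxidative phosphorylation. Each complex has a catalytic core, to which many small accessory subunits are added.

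Promoters were examined for sequences that these genes are known to share, the sites of NRF1, of the ETS factor GABP and of YY1, all regulators of nuclear genes for mitochondrial proteins. Windows of 250 bases before to 50 bases after the start site, from RefSeq on GRCm38.p6, were found for 66 of the 79 members (71 windows). On either strand, GCGCANGCG (NRF1) occurred in 26.8% of the members' windows, against 9.86% of 18110 windows of all genes of the arrays. CCGGAAG (ETS) occurred in 23.9% of the members' windows, against 13.0%, and AANATGGCG (YY1) in 12.7%, against 3.52%. At least 1 of the 3 motifs, whose letters did not exclude overlaps, was found in 53.5% of the members' windows, in 23.0% of the windows of the arrays' genes and in 15.4% of all 32851 promoters of the table. YY1 matches lay in 6 of 33 windows of complex I and 3 of 18 of complex V, and in 0 of the 20 windows of complexes II, III and IV together. A match is a run of letters and was not tested as a binding site.

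The windows of Sdhd, which encodes a membrane anchor of complex II, Uqcr11, which encodes a small subunit of complex III, and Atp5j, which encodes coupling factor 6 of complex V, each held matches to 2 motifs and are shown 5′ to 3′ on the gene's strand with the matches in capitals. In Sdhd (chr9:50603800-50604099, minus strand) the NRF1 match starts 79 bases before the start site and the ETS match, here as its reverse complement, 46 bases before it. In Uqcr11 (chr10:80406772-80407071, minus strand) the ETS match starts 66 bases before the start site and the NRF1 match, as its reverse complement, spans it. In Atp5j (chr16:84834927-84835226, minus strand) the YY1 match starts 88 bases and the ETS match 61 bases before the start site.
Sdhd: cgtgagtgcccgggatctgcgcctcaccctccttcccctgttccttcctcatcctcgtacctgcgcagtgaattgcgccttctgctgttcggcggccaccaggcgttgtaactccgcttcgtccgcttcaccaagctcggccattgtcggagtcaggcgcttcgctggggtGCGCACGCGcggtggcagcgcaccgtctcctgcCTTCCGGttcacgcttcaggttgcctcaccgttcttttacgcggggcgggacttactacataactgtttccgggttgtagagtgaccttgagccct
Uqcr11: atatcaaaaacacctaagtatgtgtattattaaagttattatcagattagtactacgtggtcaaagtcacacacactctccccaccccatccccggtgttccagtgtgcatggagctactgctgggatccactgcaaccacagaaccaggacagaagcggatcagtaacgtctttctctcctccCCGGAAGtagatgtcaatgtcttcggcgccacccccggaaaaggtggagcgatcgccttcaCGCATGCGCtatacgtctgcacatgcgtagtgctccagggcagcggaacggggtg
Atp5j: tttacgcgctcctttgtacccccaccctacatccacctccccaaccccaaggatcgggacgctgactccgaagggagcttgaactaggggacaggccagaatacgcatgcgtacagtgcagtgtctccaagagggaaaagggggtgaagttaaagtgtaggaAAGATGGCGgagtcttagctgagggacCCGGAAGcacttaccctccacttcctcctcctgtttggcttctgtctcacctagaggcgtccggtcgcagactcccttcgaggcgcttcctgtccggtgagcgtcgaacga

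On the A1 DMSO array, 131 genes stood over 1 log2 above all 7 other arrays, against 0 to 41 on each of the others. Leading genes there were Ucp1 and Cidea of brown fat, at 11.52 and 11.51 on that array and at most 4.21 and 4.89 elsewhere, and Adipoq and Fabp4 of adipocytes, at 10.63 and 13.18 and at most 4.06 and 8.36 elsewhere. The 6 measured of 8 brown fat and adipocyte markers, a list chosen after these values were seen, had a mean level of 10.16 on the A1 DMSO array and of 4.42 to 5.45 on the others. Stroma markers averaged 6.20 there, against 4.67 to 5.01 elsewhere. Sirt1 on the arrays labelled shSirt1 was at 57.8% (A1) and 106% (A5) of the shLUC mean in EPZ4777, and at 56.6% and 102% in DMSO, so it was not lower on A5 and the label is written as a label throughout. All 14 measured neutrophil maturation markers were higher in EPZ4777 and 9 passed the test, with mean levels of 10.30 to 11.95 on the EPZ4777 arrays and 7.66 to 9.32 on the DMSO arrays. Of 12 macrophage markers 4 passed, all higher, and in shLUC cells their mean level was 6.53 and 7.13 in EPZ4777, against 5.27 and 5.38 in DMSO. In cells labelled shSirt1 it was 4.64 and 5.10 in EPZ4777, against 4.74 and 4.94 in DMSO, with 7 of the 12 lower, a median of -0.13 and 0 past the threshold, where 6 passed in shLUC cells. The part of these markers in any result below was not tested, and in bulk samples fewer cells of a type and less RNA per cell cannot be told apart. Erythroid and T, NK and B cell markers had mean levels of 4.45 to 4.84 on all arrays, with 0 of 5 and 0 of 7 past the threshold, and 0 of 8 stroma markers passed. The 11 markers of leukemic myeloid cells averaged 9.96 to 10.56, of which Itgam and Fcgr3 passed as higher in EPZ4777 and Meis1 as lower.

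The first comparison asked how the 79 genes differed between the 4 EPZ4777 arrays and the 4 DMSO arrays, as the average of the effects in both hairpin arms. Subunit genes differed little. Their median difference was -0.077, against -0.057 for all genes above the median level of the arrays (6.13), where 75 of the 79 members lie, and 0.0051 for all genes. A single member, Ndufs3 of complex I, passed limma's test at an adjusted p under 0.05, and it was lower; 10.9% of all genes passed, 6% in the lower direction. With the code as a replicate block, which compares the arrays of a code with each other, 6 members passed, all lower: Ndufs3, Ndufs1, Sdha, Cox7a1, Atp5a1 and Atp5b (7.59%), against 8.59% of all genes and 15.5% of genes above the median level. With the code as a random block 11 members passed, all lower: the same 6 with Ndufa5, Ndufa9, Ndufb10, Sdhb and Uqcrc1. That is 13.9%, against 11.5% of all genes and 20.7% of genes above the median level. Without a block that is 1091 genes lower and 888 higher, and with each array centred on its median over all genes it was 1668 lower and 731 higher, with 9 members past the threshold. At an unadjusted p under 0.05, 18 members (22.8%) were lower and 0 higher, where 15% of all genes and 26.3% of genes above the median level were lower and 12.4% of all genes higher. The members' share thus lay between that of all genes and that of genes above the median level, but the members are brighter than most of the latter. Among genes with a mean of 12 log2 or more, 9.3% of the 43 members and 17.8% of all 495 genes were lower at that p, and among the others above the median level 43.8% of the 32 members and 26.8% of all 8601 genes. A difference that did not pass is not shown to be absent: 77 of the 79 members differed by less than 0.4, and of the 1979 genes that passed, 316 did so with a difference under 0.4. By complex the medians were -0.076 (I), -0.27 (II), -0.14 (III), -0.031 (IV) and -0.078 (V), and 55 of the 79 members had a negative difference. Without the A1 DMSO array, the members' median was -0.040, 45 members were negative and complex IV had a median of 0.031, while complex II stood at -0.20 and complex III at -0.091. The members past the threshold changed when 1 array was left out. Such a fit leaves 1 array in a group, and calls over all genes changed widely as well. Those changes therefore cannot be read as particular to the members.

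**Figure D1:**
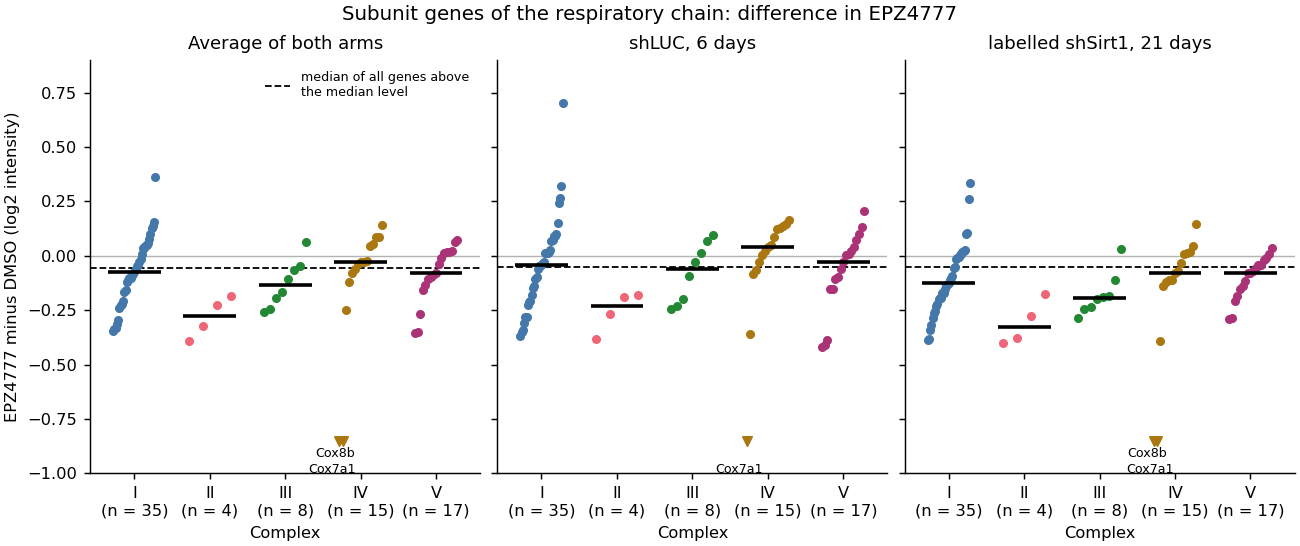
Difference between EPZ4777 and DMSO (log2 intensity) of each of the 79 subunit genes, by complex, as the average of both arms and in each arm. Points are genes, black bars are medians and the dashed line is the median of all genes above the median level; triangles at the lower edge are genes beyond the axis (Cox7a1 and Cox8b, between -1.14 and -2.78). The 4 genes of complex II lie below 0 in every panel.

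A count of groups that do not overlap was made next. For 16 members (20.3%), all 4 EPZ4777 arrays lay below all 4 DMSO arrays, against 9.94% of all genes and 18% of genes above the median level. Complex I held 8 of them, II held 3, III and V held 2 each and IV held 1. In the other direction 1 member, Ndufb3 of complex I, had all EPZ4777 arrays above all DMSO arrays (1.27%), against 8.05% of all genes. Within each code taken by itself, 32 members (40.5%) were lower in EPZ4777 in all 4 codes, against 19.6% of all genes and 32.7% of genes above the median level. Higher in all 4 codes were 5 members (6.33%: Ndufb3, Ndufb7, Ndufc2, Uqcrb and Cox8c), against 18.7% of all genes and 22.5% of genes above the median level. With the A1 DMSO array left out, 16 members (20.3%) had no overlap in the lower direction, against 12.3% of all genes and 21% of genes above the median level.

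Complex I takes electrons from NADH onto a flavin and passes them along iron-sulfur clusters to coenzyme Q. Ndufs3, a core subunit of the arm that faces the matrix, had 10.88, 10.72, 11.03 and 10.94 on the EPZ4777 arrays, against 11.13, 11.17, 11.38 and 11.23 on the DMSO arrays. The EPZ4777 arrays all lay below the DMSO arrays, at 79.3% of the DMSO level on average. The difference was -0.33 ± 0.081 (SE, n = 4 arrays each, limma adjusted p = 0.0446). That call was lost on leaving out 7 of the 8 arrays. Such a fit leaves a single array in a group, and calls over all genes changed widely as well. The loss therefore cannot be read as particular to Ndufs3. The difference itself lay between -0.29 and -0.37 in those fits.

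The other nuclear core subunits of complex I among the members did not pass without the block, and all had a negative difference. The mitochondrially encoded core subunit that was measured is not among them. It had a positive difference and is described below. Ndufv1, which binds the flavin and NADH, had 11.03, 10.72, 11.10 and 10.78 on the EPZ4777 arrays, against 11.13, 11.23, 11.49 and 11.15 on the DMSO arrays (-0.35 ± 0.13, adjusted p = 0.133). Ndufs1, the largest iron-sulfur subunit, had 10.26, 10.09, 10.27 and 10.22 on the EPZ4777 arrays, against 10.56, 10.47, 10.61 and 10.46 on the DMSO arrays (-0.31 ± 0.081, adjusted p = 0.0527, and 0.0418 with the code as a replicate block). Both had every EPZ4777 array below every DMSO array, and for Ndufv1 the gap between the lowest DMSO array (11.13) and the highest EPZ4777 array (11.10) was narrow. Differences of the iron-sulfur subunits Ndufs7, Ndufv2 and Ndufs8 were -0.22, -0.17 and -0.11, with adjusted p of 0.150, 0.239 and 0.419. Over these 6 core subunits, with Ndufs3 among them, the median was -0.27. Over the 29 other genes of complex I it was -0.043, with 17 of the 29 negative. That grouping was made after the values were seen and has no test; without the A1 DMSO array the medians were -0.23 and 0.0046.

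Accessory genes of complex I lay on both sides of 0. Ndufa5, which sits in the matrix arm beside the core, had 11.10, 10.81, 11.16 and 10.94 on the EPZ4777 arrays, against 11.20, 11.28, 11.50 and 11.38 on the DMSO arrays, with no overlap (-0.33 ± 0.099, adjusted p = 0.0761). Its other probe set (mean level 10.93) differed by -0.14. Ndufa9, which lies near the coenzyme Q site, had 11.53, 11.30, 11.77 and 11.57 on the EPZ4777 arrays, against 11.80, 11.77, 11.97 and 11.81 on the DMSO arrays. Its groups overlapped, since A1 in EPZ4777 (11.77) lay just above D11 in DMSO (11.77), and the difference was -0.29 ± 0.094 (adjusted p = 0.0912). Ndufa10 (-0.24 ± 0.091, adjusted p = 0.144) and Ndufb10 (-0.23 ± 0.074, adjusted p = 0.0993) were the other accessory genes with an unadjusted p under 0.05. With the code as a random block Ndufa5 (adjusted p = 0.0326), Ndufa9 (0.0345) and Ndufb10 (0.0418) passed. They did not pass with the replicate block (0.0636, 0.0550 and 0.0865). At the other end, Ndufa6, an accessory subunit of the matrix arm, had 11.19, 11.25, 11.04 and 11.08 on the EPZ4777 arrays, against 10.01, 11.03, 11.11 and 10.96 on the DMSO arrays. Its difference of 0.36 ± 0.21 (adjusted p = 0.312) rested on 1 array, A4 in DMSO, which lay about 1 log2 below the other 7; without that array it was 0.11. Ndufb3, a membrane arm subunit, had 11.31, 11.30, 11.35 and 11.38 on the EPZ4777 arrays, against 11.20, 11.12, 11.28 and 11.23 on the DMSO arrays. This was the member whose EPZ4777 arrays all lay higher, by 0.13 ± 0.068 (adjusted p = 0.280).

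Ndufa4 is named for complex I, has since been placed in complex IV, and is counted here under its name. It had 12.19, 12.41, 12.44 and 12.44 on the EPZ4777 arrays, against 12.33, 12.36, 12.51 and 12.39 on the DMSO arrays, a difference of -0.027 ± 0.082 (adjusted p = 0.872). Its paralogue Ndufa4l2, known as a gene induced by hypoxia, lay close to the median of all genes, with 6.42, 6.09, 6.06 and 6.15 on the EPZ4777 arrays, against 6.32, 6.24, 6.30 and 6.16 on the DMSO arrays (-0.076 ± 0.097, adjusted p = 0.685). The groups of both genes overlapped. Ndufb1 was the complex I gene with the highest difference in cells labelled shSirt1 (0.33 ± 0.18, adjusted p = 0.407), against -0.18 ± 0.18 in shLUC cells, where the sign turned to 0.093 without the A4 EPZ4777 array. Ndufb4 was read at 3.496 to 3.82 on all arrays by its single-symbol probe set, below the lower quartile of all genes (4.27), while the 2 probe sets it shares with Ndufb4b and Ndufb4c lay at 11.48 to 11.79 and differed by -0.076 and -0.10.

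All 4 genes of complex II, which oxidizes succinate and hands the electrons to coenzyme Q, had a negative difference in each of the 4 codes. In the main fit 0 of the 4 passed. Sdha, the flavoprotein that holds the succinate site, had 10.58, 10.39, 10.79 and 10.46 on the EPZ4777 arrays, against 10.90, 10.84, 11.26 and 10.79 on the DMSO arrays. A1 in EPZ4777 (10.79) overlapped A5 in DMSO (10.79), and the difference was -0.39 ± 0.13, 76.2% of the DMSO level (adjusted p = 0.109). With the code as a replicate block Sdha passed (adjusted p = 0.0289), and with the random block both Sdha (adjusted p = 0.0351) and Sdhb (0.0318) passed. Sdhb, the iron-sulfur subunit, had 11.09, 11.13, 11.07 and 10.97 on the EPZ4777 arrays, against 11.37, 11.39, 11.59 and 11.21 on the DMSO arrays (-0.32 ± 0.099, adjusted p = 0.0824). Its EPZ4777 arrays all lay below its DMSO arrays. Sdhc and Sdhd, which encode the membrane anchors, held the same order of arrays. Sdhc had 10.11, 9.89, 10.11 and 10.00 on the EPZ4777 arrays, against 10.12, 10.24, 10.45 and 10.21 on the DMSO arrays (-0.23 ± 0.095, adjusted p = 0.177), and the gap between its groups was narrow. Sdhd, whose promoter is shown above, had 11.72, 11.51, 11.79 and 11.64 on the EPZ4777 arrays, against 11.82, 11.80, 11.95 and 11.83 on the DMSO arrays (-0.18 ± 0.085, adjusted p = 0.222). Median differences of the complex were -0.19 (A4), -0.32 (D11), -0.40 (A1) and -0.23 (A5) by code. The A1 DMSO array was the highest of the 8 for all 4 genes; without it Sdha stood at -0.27 (adjusted p = 0.225) and Sdhb at -0.23 (adjusted p = 0.165).

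In complex III, which passes electrons from coenzyme Q to cytochrome c, 7 of 8 genes had a negative difference and 0 passed in the main fit. With the random block Uqcrc1 passed (adjusted p = 0.0242). Uqcrc1, a core protein on the matrix side, had 11.31, 11.20, 11.33 and 11.26 on the EPZ4777 arrays, against 11.50, 11.46, 11.58 and 11.58 on the DMSO arrays, without overlap. The difference was -0.26 ± 0.070 (adjusted p = 0.0613), and it stayed at -0.26 without the A1 DMSO array. Uqcrc2, the other core protein, had 12.08, 11.87, 12.15 and 12.07 on the EPZ4777 arrays, against 12.24, 12.20, 12.50 and 12.21 on the DMSO arrays (-0.25 ± 0.096, adjusted p = 0.151), also without overlap. Uqcrfs1, the Rieske iron-sulfur protein, had 11.59, 11.43, 11.71 and 11.55 on the EPZ4777 arrays, against 11.69, 11.73, 11.94 and 11.69 on the DMSO arrays (-0.19 ± 0.091, adjusted p = 0.227). A1 in EPZ4777 overlapped the DMSO arrays there. The 5 small subunits had a median of -0.065, from -0.17 for Uqcrq to 0.063 for Uqcrb. Uqcrb, the one gene of the complex above 0, had 13.78, 13.81, 13.83 and 13.80 on the EPZ4777 arrays, against 13.69, 13.71, 13.81 and 13.75 on the DMSO arrays (0.063 ± 0.067, adjusted p = 0.611), and its groups overlapped.

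**Figure D2:**
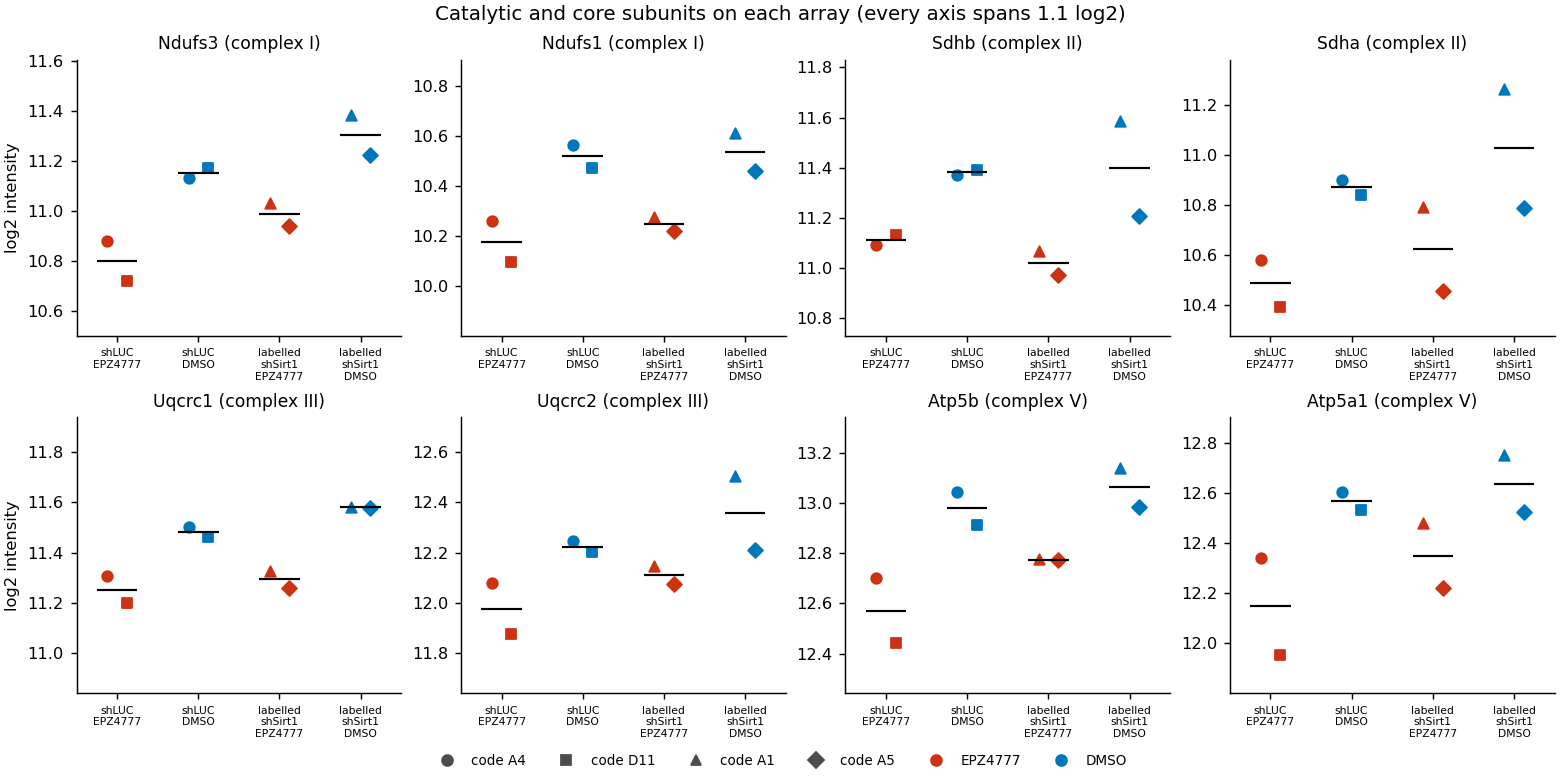
Log2 intensity of 8 catalytic or core subunits on each array, EPZ4777 left of DMSO within each hairpin label; marker shapes are the codes, black bars the mean of 2 arrays, and every axis spans 1.1 log2. In every panel both group means in EPZ4777 lie below the means in DMSO of the same label. The groups overlap over all 8 arrays in the panel of Sdha. The panels are a selection made with the values known. Core and head genes not shown include Ndufv1 (-0.35), Ndufs8 (-0.11), Atp5c1 (-0.087) and Atp5e (0.064).

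Complex IV, which reduces oxygen with electrons from cytochrome c, held the bright ubiquitous subunits and several isoforms known from other tissues. Of its 15 genes 0 passed in the main fit. Cox5a, Cox5b, Cox6a1, Cox6b1, Cox6c, Cox7a2 and Cox8a, all ubiquitous subunits that surround the catalytic core, lay between 11.96 and 14.09 on all arrays, with differences from -0.077 (Cox5b) to 0.086 (Cox5a). For Cox7a2 the arrays read 13.25, 13.30, 13.26 and 13.25 in EPZ4777, against 13.20, 13.17, 13.27 and 13.20 in DMSO, a difference of 0.052 ± 0.068 (adjusted p = 0.688). Cox6a1 (-0.036 ± 0.078), Cox6b1 (-0.028 ± 0.080) and Cox8a (-0.031 ± 0.094) had adjusted p of 0.824, 0.867 and 0.876. Cox7c, another ubiquitous subunit, had 7.69, 7.62, 7.91 and 7.86 on the EPZ4777 arrays, against 7.85, 8.18, 8.01 and 8.04 on the DMSO arrays (-0.25 ± 0.092, adjusted p = 0.135), and A1 and A5 in EPZ4777 lay above A4 in DMSO. Cox7a2l, a factor that joins complexes III and IV rather than a subunit of the core enzyme, was the highest of the complex in shLUC cells (0.17 ± 0.11, adjusted p = 0.464).

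Among the isoforms, Cox7a1, the form of heart, muscle and brown fat, had the lowest difference of all 79 members. It read 6.13, 5.60, 5.80 and 6.08 on the EPZ4777 arrays, against 6.91, 7.10, 9.77 and 7.30 on the DMSO arrays. All EPZ4777 arrays lay below all DMSO arrays, and among the DMSO arrays A1 stood 2.47 log2 above the next. Over the 8 arrays the difference was -1.86 ± 0.49 (adjusted p = 0.0544), just outside the threshold, and with the code as a replicate block it passed (adjusted p = 0.0491). Without the A1 DMSO array the difference was -1.25. Without the A5 DMSO array, which leaves A1 alone in its DMSO group, it was -2.48. Both fits leave 1 array in a group, so only sizes are given. Differences by code were -0.78 (A4), -1.50 (D11), -3.97 (A1) and -1.21 (A5). Cox7a1 was thus lower in EPZ4777 also in the 3 codes whose DMSO arrays had brown fat markers at the level of the other arrays.

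Cox8b, the other form of heart, muscle and brown fat, gave a different result. It had 5.20, 5.02, 5.15 and 5.73 on the EPZ4777 arrays, against 5.002, 5.28, 11.17 and 5.27 on the DMSO arrays, so 7 arrays lay at 5.002 to 5.73, below the median of all genes, and A1 in DMSO alone at 11.17. Of all 18193 genes Cox8b had the 6th largest excess on that array and Cox7a1 the 39th. Its difference of -1.40 ± 1.12 (adjusted p = 0.487) turned to 0.071 without the A1 DMSO array. Cox6a2, the muscle partner of Cox6a1, had 6.69, 6.14, 6.57 and 6.29 on the EPZ4777 arrays, against 6.56, 6.40, 6.60 and 6.23 on the DMSO arrays, and A1 in DMSO did not stand out (-0.025 ± 0.15, adjusted p = 0.943). Striated muscle markers, chosen after the values were seen, had a mean level of 5.20 on the A1 DMSO array and 4.21 to 4.46 elsewhere.

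Of the forms known from testis, Cox6b2 and Cox7b2 lay below the median of all genes and Cox8c above it. Cox6b2 had 4.56, 4.69, 4.36 and 4.44 on the EPZ4777 arrays, against 4.45, 4.50, 4.65 and 4.94 on the DMSO arrays (-0.12 ± 0.091, adjusted p = 0.453). Cox7b2 read 3.05 to 3.24 on all arrays (-0.058 ± 0.075, adjusted p = 0.686), below the lower quartile of all genes. Cox8c had 7.30, 6.98, 7.10 and 7.14 on the EPZ4777 arrays, against 7.11, 6.90, 6.89 and 7.05 on the DMSO arrays. It was higher in all 4 codes but the groups overlapped (0.14 ± 0.10, adjusted p = 0.446). Its other probe set (mean level 5.70) differed by -0.044.

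**Figure D3:**
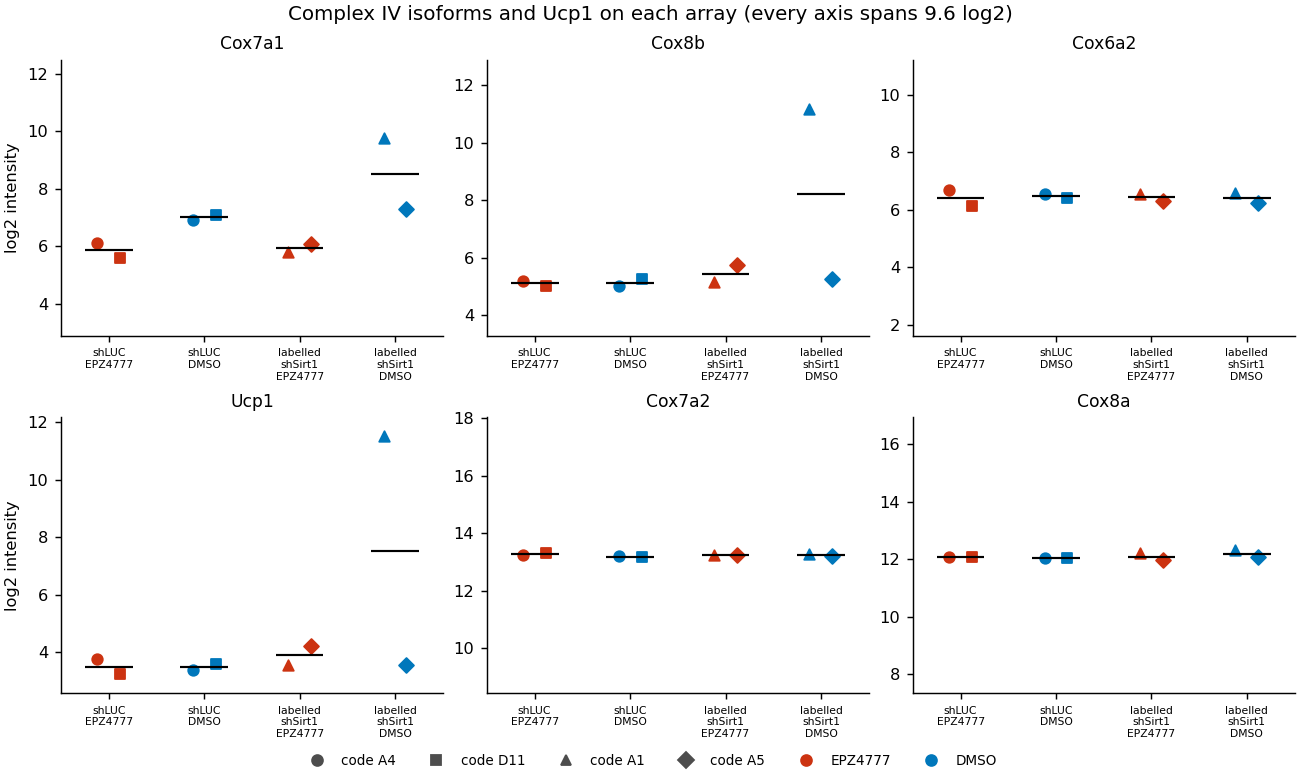
Log2 intensity on each array of the complex IV isoforms Cox7a1, Cox8b and Cox6a2, of the brown fat marker Ucp1 and of the ubiquitous counterparts Cox7a2 and Cox8a, EPZ4777 left of DMSO within each hairpin label; bars are means of 2 arrays and every axis spans 9.6 log2. Cox8b and Ucp1 stand high on A1 in DMSO alone, while Cox7a1 is lower in EPZ4777 in all 4 codes.

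Complex V consists of the F1 head, where ATP is made, the proton-conducting ring of subunit c in the membrane, and the stalks between them. Of its 17 genes 0 passed in the main fit and 11 had a negative difference. Atp5b, the catalytic beta subunit of the head, had 12.70, 12.44, 12.78 and 12.77 on the EPZ4777 arrays, against 13.04, 12.91, 13.14 and 12.99 on the DMSO arrays. Atp5a1, its alpha partner, had 12.34, 11.95, 12.48 and 12.22 on the EPZ4777 arrays, against 12.60, 12.53, 12.75 and 12.52 on the DMSO arrays. In both genes the EPZ4777 arrays lay below all DMSO arrays, with differences of -0.35 ± 0.090 (adjusted p = 0.0529) and -0.35 ± 0.12 (adjusted p = 0.106). The 2 other probe sets of Atp5a1 (mean levels 12.3 and 6.72) differed by -0.17 and -0.29. Both passed with the code as a replicate block, at an adjusted p of 0.0370 for Atp5b and 0.0473 for Atp5a1. Without the A1 DMSO array the differences of Atp5b and Atp5a1 were -0.31 and -0.30. The shaft subunit Atp5c1 (-0.087 ± 0.071), Atp5d (-0.11 ± 0.085) and Atp5e (0.064 ± 0.072), which complete the head, had adjusted p of 0.493, 0.477 and 0.633. The 12 genes outside the head had a median of -0.023, against -0.11 for the 5 genes of the head, a grouping made after the values were seen.

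All 3 Atp5g genes encode the same mature subunit c and differ in their import sequences. Atp5g1 had 11.98, 11.76, 12.24 and 11.96 on the EPZ4777 arrays, against 12.22, 12.30, 12.21 and 12.28 on the DMSO arrays (-0.27 ± 0.096, adjusted p = 0.122). The difference lay in A4, D11 and A5, while A1 read slightly higher in EPZ4777. Atp5g2 had 11.63, 11.56, 11.87 and 11.75 on the EPZ4777 arrays, against 11.75, 11.74, 11.97 and 11.87 on the DMSO arrays (-0.13 ± 0.073, adjusted p = 0.302), and Atp5g3 had 13.36, 13.19, 13.45 and 13.25, against 13.39, 13.36, 13.40 and 13.41 (-0.078 ± 0.082, adjusted p = 0.609). Groups overlapped in all 3. The highest of complex V was Atp5j, whose promoter is shown above, with 12.74, 12.76, 12.76 and 12.63 on the EPZ4777 arrays, against 12.62, 12.61, 12.73 and 12.64 on the DMSO arrays (0.071 ± 0.072, adjusted p = 0.592). Atp5pb, the stalk subunit b, was the highest in cells labelled shSirt1 (0.036 ± 0.10, adjusted p = 0.894). Other stalk and membrane genes (Atp5h, Atp5j2, Atp5k, Atp5l, Atp5mpl, Atp5md and Atp5o) had differences from -0.16 to 0.017.

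Brighter members had smaller differences. The 43 members with a mean of 12 log2 or more had a median difference of -0.028, with 25 negative, and the 32 others above the median level a median of -0.16, with 26 negative. Over all genes of these levels the medians were -0.042 (495 genes) and -0.059 (8601 genes). Over these 75 members Spearman's rho between mean level and difference was 0.34, given as a description since the genes share the same arrays and the same scaling.

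The arms were then taken separately. In shLUC cells, after 6 days, 0 of 79 members passed, where 3.98% of all genes did (2.36% lower), 429 lower and 295 higher, or 1037 and 281 with centred arrays. The replicate block also gave 0 members, with 3.61% of all genes and 6.62% of genes above the median level lower. At an unadjusted p under 0.05, 7 members were lower (8.86%), against 12.2% of all genes, and 1 was higher (1.27%), against 9.49%. The median was -0.030 over all members and -0.040 (I), -0.23 (II), -0.061 (III), 0.038 (IV) and -0.030 (V) by complex, and 43 of 79 were negative. Lowest by complex, among members above the median level, were Ndufa9 (-0.37 ± 0.13), Sdha (-0.38 ± 0.19), Uqcrc2 (-0.25 ± 0.14), Cox7a1 (-1.14 ± 0.69) and Atp5a1 (-0.42 ± 0.17), with adjusted p from 0.163 to 0.409. After each array was centred on its median over all genes, the members' median in this arm was -0.12, so the size of the shift depended on the scaling.

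In cells labelled shSirt1, after 21 days, 0 of 79 members passed, where 0.396% of all genes did (0.181% lower). The replicate block also gave 0 members, with 0.907% of all genes and 1.37% of genes above the median level lower. At an unadjusted p under 0.05, 8 members (10.1%) were lower, against 7.98% of all genes, and 0 higher, against 7.83%. The median was -0.12 over all members and -0.12 (I), -0.33 (II), -0.19 (III), -0.079 (IV) and -0.079 (V), and 62 of 79 were negative. Lowest by complex, among members above the median level, were Ndufa5 (-0.39 ± 0.14), Sdha (-0.40 ± 0.19), Uqcrc1 (-0.29 ± 0.099), Cox7a1 (-2.59 ± 0.69) and Atp5b (-0.29 ± 0.13), with adjusted p from 0.176 to 0.357. Without the A1 DMSO array the members' median was -0.057, complex II stood at -0.16 and complex IV at 0.013. Without the A5 DMSO array, which leaves A1 alone as the DMSO array, Cox7a1 stood at -3.82 and Cox8b at -5.72.

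The difference between the arms was tested directly. For labelled shSirt1 minus shLUC, 0 genes and 0 members passed in limma's test, where 0% of all genes is the background. At an unadjusted p under 0.05, 2 members were lower (Ndufa1 at -0.41 and Cox6b2 at -0.54), against 3.22% of all genes, and 0 higher, against 3.49%; in all 1221 genes were under it. The members' median was -0.071, and after centring of the arrays 0.011, so its sign was not stable. In 7 members (8.86%) both shLUC codes were higher in EPZ4777 and both codes labelled shSirt1 lower, against 5.3% of all genes and 5.9% of genes above the median level. The opposite pattern was seen in 0 members, against 5.9% of all genes and 5.02% of genes above the median level. Cells labelled shSirt1 against shLUC cells in DMSO likewise gave 0 genes (0%) and 0 members past the threshold, with 985 genes at an unadjusted p under 0.05 (3.4% lower and 2.01% higher) and 1 member, Cox6b2, higher by 0.32. The members' median was 0.088 there, and 71 of 79 (89.9%) were higher in the cells labelled shSirt1, against 46.9% of all genes and 52% of genes above the median level. Both DMSO arrays of these cells lay above both of shLUC cells in 38 members (48.1%), against 17% of all genes; without the A1 DMSO array the median was 0.024. Without the A5 DMSO array, which leaves A1 alone, Cox7a1 and Cox8b differed by 2.76 and 6.03 in this comparison. In the difference between the arms they stood at -2.68 and -5.69. In EPZ4777 0 members passed, where 0.308% of all genes did (0.242% lower), and the median was 0.018. There 1 member, Ndufa1, was lower at an unadjusted p under 0.05 (-0.32), against 6.44% of all genes, and 0 higher, against 6.9%. The 3 EPZ4777 comparisons and the hairpin comparisons share their DMSO or EPZ4777 arrays and are not independent of each other.

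For 45 of the 79 members (57%) the highest of the 8 values was on A1 in DMSO, against 13.7% of all genes and 17.8% of genes above the median level, and for 33 members (41.8%) the lowest was on D11 in EPZ4777, against 22.4% of all genes and 28% of genes above the median level. As the median deviation of members from their own mean, the arrays scored -0.012 (A4), -0.087 (D11), 0.018 (A1) and -0.076 (A5) in EPZ4777, against -0.021, -0.0077, 0.15 and 0.017 in DMSO. The pooled SD within groups of these scores was 0.064. D11 and A5 in EPZ4777 were the lowest arrays and A1 in DMSO the highest, while the A4 arrays hardly differed. Those 2 low arrays also had the highest mean level of neutrophil maturation markers, 11.95 and 11.94, against 10.50 (A4) and 10.30 (A1) in EPZ4777; the part of these markers was not tested.

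**Figure D4:**
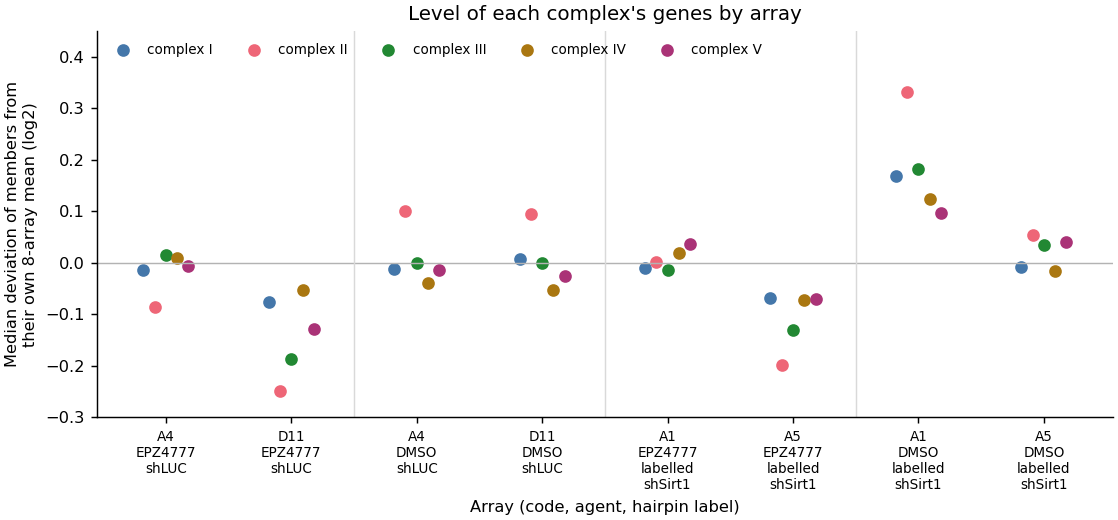
Median deviation (log2) of the genes of each complex from their own mean over the 8 arrays, EPZ4777 left of DMSO within each hairpin label. A1 in DMSO lies highest for all 5 complexes, and complex II spans the widest range, from -0.25 to 0.33.

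Other genes of the pathway, from lists taken from general knowledge, were counted beside the subunits. The lists, too, were chosen with earlier results of these data known. Of 44 measured assembly factors, the proteins that build the complexes without staying in them, 12 fell and 0 rose in the average comparison, where 6% of all genes and 11.1% of genes above the median level were called lower; the median was -0.29. Ecsit, an assembly factor of complex I, averaged 7.35 in EPZ4777 and 8.13 in DMSO (-0.78 ± 0.090, adjusted p = 0.0113). Coa7 (-0.67 ± 0.098) for complex IV, Ndufaf4 (-0.66 ± 0.15) and the iron-sulfur carrier Nubpl (-0.62 ± 0.12) for complex I, and Uqcc1 (-0.63 ± 0.099) for complex III fell as well, with adjusted p from 0.0149 to 0.0398. The median of these factors lay at -0.35 in shLUC cells, where 6 passed (2.36% of all genes were called lower there), and at -0.22 in cells labelled shSirt1, where 0 passed and 0.181% of all genes were called lower.

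Genes of coenzyme Q synthesis and of the TCA cycle, which feeds electrons to the chain, were counted next. Of 11 genes of coenzyme Q synthesis 4 fell (36.4%): Coq3 (-0.50 ± 0.10), Coq4 (-0.44 ± 0.080), Coq5 (-0.40 ± 0.092) and Coq7 (-0.41 ± 0.087), with adjusted p from 0.0238 to 0.0398 and a list median of -0.41. Of 18 genes of the TCA cycle and pyruvate dehydrogenase 3 fell (16.7%): Suclg2 (-0.69 ± 0.14), a subunit of succinyl-CoA synthetase, Idh3a (-0.55 ± 0.11), of the NAD-linked isocitrate dehydrogenase, and Dlst (-0.37 ± 0.070), of the 2-oxoglutarate dehydrogenase; the list median was -0.34. Among 20 regulators of mitochondrial biogenesis 2 fell, a share of 10% that is near the 11.1% of genes above the median level. They were Gabpb1 (-0.48 ± 0.093), a subunit of the ETS factor whose motif was searched above, and Tfb1m (-0.47 ± 0.11), a methyltransferase of mitochondrial ribosomal RNA, and the list median was -0.34. With the code as a replicate block, 15 assembly factors, 7 coenzyme Q genes, 9 TCA cycle genes and 4 regulators were called lower, against 8.59% of all genes. Without the A1 DMSO array, the medians of these 4 lists were -0.26, -0.30, -0.25 and -0.28 in the same order. That fit leaves 1 array in a group, and fewer genes passed in each list, as over all genes. Leaving out the A4 or the D11 DMSO array left 0 genes of the whole array called lower.

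The 7 measured genes of the chain that the name patterns miss, among them Cox4i1 of complex IV, Ndufab1 of complex I and the cytochromes Cyc1 and Cycs, had a median of -0.14 and 0 passed. Of 26 names of mitochondrially encoded subunits 1 was measured as a gene, ND5 of complex I, with 12.23, 12.48, 12.08 and 11.95 on the EPZ4777 arrays, against 12.01, 12.02, 12.23 and 11.86 on the DMSO arrays (0.16 ± 0.11, adjusted p = 0.422). The groups overlapped, and the other mitochondrial names were not analysed here.

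**Figure D5:**
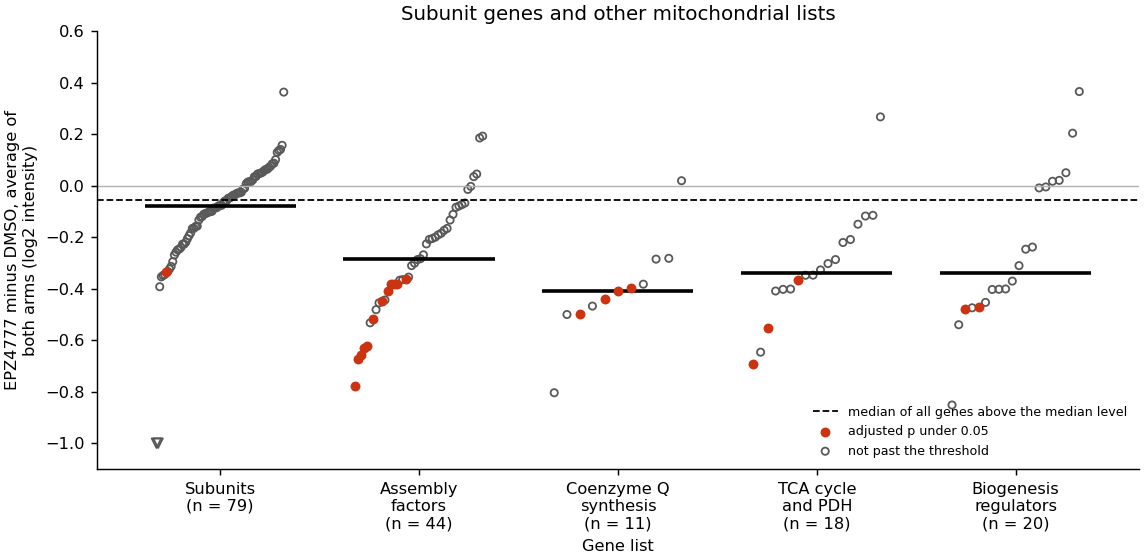
Average difference between EPZ4777 and DMSO (log2 intensity) of the 79 subunit genes and of 4 other mitochondrial gene lists. Filled points passed the test (adjusted p under 0.05), bars are medians, the dashed line is the median of all genes above the median level, and the triangle at the lower edge stands for the 2 members beyond the axis, drawn over each other; the subunits' median of -0.077 lies nearer to that line than the medians of the other lists.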

How the data were processed

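Gene expression was measured on 8 Affymetrix MOE430 2.0 arrays, 2 for each of 4 groups taken from the sample titles. The deposited values are RMA intensities on a linear scale, made by the authors with RMA, per the submitters' processing notes; neither its version nor its chip definition is given in the sources used here. The linear scale was read from the values, 3.60 to 24500.3. Of 45101 probe sets, 64 controls were left out; 34945 have 1 symbol in the platform annotation and 932 have several, which name no gene. Each of 18193 genes was read by its brightest probe set of 1 symbol. In 34 of the 48 members with 2 or more such probe sets, all had the same sign of the average difference. Log2 intensities, with no pseudocount or filter, were fitted with limma 3.58.1 in R 4.3.3 as 4 group means over all 8 arrays (4 residual degrees of freedom), with 6 comparisons, each adjusted by Benjamini-Hochberg over all genes at a threshold of 0.05. An exact permutation test of 2 arrays against 2 cannot go below p = 0.333. The fit was tested on simulated data. The titles pair the arrays by code but do not say what a code is; over all genes, deviations from the group means of same-code arrays correlated at 0.293 (shLUC) and 0.378 (labelled shSirt1), and over the members alone at 0.128 and -0.482. Replicate-block values stand beside the member calls they change, and the members whose call the random block changed are named.

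Named members were those past the threshold, the highest and lowest of each complex in the first 3 comparisons among those above the median level, the tissue isoforms and their counterparts, subunit c and complex II, and from other lists up to 5 genes past the threshold; other members were named after their values were seen. The members and lists were chosen with earlier results of these data known. Alternatives were the probe set rule, a level filter, median centring, quantile normalization, robust or trended variance, a fit of only the compared arrays, code as a fixed or random block, a threshold of 0.10 and leaving out each array; leaving out both arrays of A1 or A5 was chosen after seeing the data. The number of arrays limits the precision.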

Additional observations from a re-analysis of the deposited data

Results flagged for a closer look

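In 7 of the 79 members, both shLUC codes had higher values in EPZ4777 than in DMSO while both codes labelled shSirt1 had lower values. That is 8.86% of the members, against 5.3% of all genes. The difference between the arms (labelled shSirt1 minus shLUC, log2) did not pass limma's test in any of them, with adjusted p from 0.654 to 0.910. Cox6b2, the testis form of a complex IV subunit, had the widest, -0.540, from differences of -0.29 (A1) and -0.50 (A5) against 0.11 (A4) and 0.19 (D11), at a level below the median of all genes. Ndufv3, an accessory subunit of complex I, had -0.459, from -0.25 (A1) and -0.14 (A5) against 0.37 (A4) and 0.16 (D11). Atp5e, the epsilon subunit of the F1 head, had -0.287, and Uqcrh, the hinge protein of complex III, had -0.269. Ndufb6 of complex I had -0.217, Atp5mpl of complex V -0.169 and Cox8a of complex IV -0.159. Hairpin and days in EPZ4777 cannot be told apart in these values.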

How the results depend on the processing

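In the average comparison 1979 genes and 1 member passed. With every probe set by itself 3279 and 2 passed (further probe sets of Cox7c and Ndufb8, both lower), with the code as a random block 3718 and 11, at a threshold of 0.10 3399 and 9, without both A5 arrays 407 and 2, and without both A1 arrays 973 genes. Members passing were 5 with probe sets of a gene averaged, 7 among genes above the median level, 9 after median centring and 5 with trended variance. Ndufs3, Ndufs1, Uqcrc1 and Atp5b passed in each of these settings, and Cox7a1 in all but the averaging. There were 6 with the code as a replicate block, which changed the call of no other member. Calls over all genes changed with the setting as well. With the replicate block 7.59% of the members and 8.59% of all genes were called lower. The counts alone thus show nothing particular to the members. Centring gave 1668 genes lower and 731 higher, against 1091 and 888. Ndufs3 had an adjusted p of 0.0560 with every probe set. Its difference was -0.351 without both A5 arrays and -0.318 without both A1 arrays, and that of Cox7a1 was -2.55 and -1.18. Those fits leave 1 array in a group, so only sizes are given.

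In shLUC cells 724 genes passed, against 1470 with every probe set, 1424 above the median level, 1318 after centring (1037 lower and 281 higher, against 429 and 295), 402 with only the arrays compared or without both arrays of A1 or A5, 1316 with the block, 2379 with the random block (and 1 member, Atp5b, adjusted p = 0.0452) and 1958 at 0.10. The members' median was -0.119 after centring. In cells labelled shSirt1 72 genes passed, against 0 with only the arrays compared, 404 with the block, 504 with the random block, 263 at 0.10, 145 without both A5 arrays (2 members) and 14 without both A1 arrays. For the difference between the arms, 3 genes passed with either block and 69 (1 member) without both A5 arrays, and the median after centring was 0.0114. Between hairpin labels in DMSO, 203 genes and 2 members passed without both A5 arrays, with a median of 0.158. In EPZ4777 56 genes passed, against 120 with every probe set, 14 with only the arrays compared, 245 at 0.10 and 129 without both A1 arrays, and the median after centring was 0.0928.

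Leaving out 1 array at a time gave, in the average comparison, 2 to 2588 genes and 0 to 5 members, with the members' median from -0.0976 to -0.0404; in shLUC cells, 0 to 1031 genes and 0 members, with the members' median from -0.0655 to 0.00693; in cells labelled shSirt1, 0 to 205 genes and 0 to 2 members, with the members' median from -0.174 to -0.057. It gave, for the difference between the arms, 0 to 89 genes and 0 to 2 members, with the members' median from -0.139 to -0.018; between hairpin labels in DMSO, 0 to 155 genes and 0 to 2 members, with the members' median from 0.024 to 0.158; between hairpin labels in EPZ4777, 0 to 73 genes and 0 members, with the members' median from -0.0351 to 0.064. Among named members whose difference exceeded its SE, signs turned for Ndufb1 in shLUC cells (0.0930 without A4 EPZ4777, against -0.456 without D11 EPZ4777), for Cox8b on average and in cells labelled shSirt1 (0.0711 and 0.172 without A1 DMSO, against -2.88 and -5.72 without A5 DMSO, and 0.217 and 0.462 without both A1 arrays) and for Atp5g1 in cells labelled shSirt1 (0.0247 without both A5 arrays). In 70 further fits, a difference of a named member that was no larger than its SE changed sign. The causes were not tested.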
